A study of Mus musculus with 8 samples.

Results

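Collagen genes were taken as all genes whose symbol is Col, a type number, a and a chain number, and that are present in both deposited count tables. The rule found 44 genes of 27 collagen types among the 30302 genes held by both tables. All 44 were placed by type number into a fibrillar class (11 genes; types I, II, III, V, XI, XXIV and XXVII), a basement membrane class (8 genes; types IV, XV and XVIII) and a class of other types (25 genes).

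RNA was sequenced in 8 libraries of primary microglial cultures of wild-type C57/BL6 mice, prepared from the striatum of pups a few days old and kept for 15 days in culture. All cells were exposed to LPS (bacterial lipopolysaccharide) plus IFN-γ over 48 h, with ligand given 3 times, at 24, 32 and 40 h. The 4 libraries of the antagonist group received the A2A receptor antagonist SCH 58261 (the A2A receptor binds adenosine), and the 4 of the dual group received SCH 58261 together with 200 nM 2-Cl-IB-MECA, which activates the A3 receptor for adenosine. Groups follow the titles, which match the count column names, while the treatment field of the labels assigns 2-Cl-IB-MECA to the opposite 4 libraries, so the direction of every difference below rests on the titles. The methods state that meninges were stripped off and that 4 pregnant animals supplied the pups. No label ties a library to a litter or says that libraries are separate cultures, so p-values measure the spread between these libraries, which may be technical. Activated cultures given only vehicle carry no sample in this series and were not used here, so the comparison concerns the addition of the A3 agonist and not activation or the A2A antagonist.

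Collagens are secreted proteins of the extracellular matrix in which 3 chains wind into a triple helix. Each chain repeats a glycine followed by a pair of other residues, because glycine alone is small enough for the core of the helix. Fibrillar collagens form the tensile fibres of connective tissue and have a long helix, in most of them without breaks. Type IV collagen forms the sheet of basement membranes around vessels and under the meninges, and its helix is interrupted many times. The other types link, bead or anchor these structures or cross the cell membrane. In the brain the main sources of fibrillar collagen are fibroblasts of the meninges and of the vessel wall, type IV collagen is made by vascular cells and astrocytes, and microglia are not known as a major source.

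The fibrillar class stands apart in its coding sequence, which is shown here because genes are described by class below. The exons printed are examples picked for their pattern. For the 4 fibrillar genes with the highest level per kilobase, only in-frame exons of 54 bases with a glycine codon opening every triplet were eligible. For Col4a1 and Col4a5 only short exons with a break in the spacing were eligible. The eligible exon nearest the middle of the coding sequence is given. Sequences are from GENCODE M21 transcripts (GRCm38), 5′ to 3′ on the strand of the gene, and capitals mark codons that start with GG, which encode glycine.
Col1a1, chr11:94946574-94946627, plus strand: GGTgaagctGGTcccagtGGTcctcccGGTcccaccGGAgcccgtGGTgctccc
Col1a2, chr6:4530172-4530225, plus strand: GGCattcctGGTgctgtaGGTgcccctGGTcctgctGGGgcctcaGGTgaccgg
Col3a1, chr1:45337958-45338011, plus strand: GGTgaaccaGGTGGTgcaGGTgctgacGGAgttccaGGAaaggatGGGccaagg
Col5a2, chr1:45394382-45394435, minus strand: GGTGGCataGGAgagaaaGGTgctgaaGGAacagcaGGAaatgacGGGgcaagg
Col4a1, chr8:11220982-11221095, minus strand: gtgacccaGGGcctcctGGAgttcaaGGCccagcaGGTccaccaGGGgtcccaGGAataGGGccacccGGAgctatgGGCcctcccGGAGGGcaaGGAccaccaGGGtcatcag
Col4a5, chrX:141626831-141626944, plus strand: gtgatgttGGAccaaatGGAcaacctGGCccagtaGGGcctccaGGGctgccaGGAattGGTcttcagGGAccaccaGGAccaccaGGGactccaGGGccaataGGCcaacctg
By this choice, a glycine codon opens every triplet of codons in the fibrillar exons from the first base to the last. Col3a1 and Col5a2 hold 1 more glycine codon beside these. In both type IV exons, which were picked for a break and start inside a codon, the spacing breaks once in the middle. There 1 triplet is short of a codon. Over whole coding sequences the longest uninterrupted run of such triplets was 216 to 344 (median 338) in the 11 fibrillar genes, 30 to 66 (median 41) in the 8 basement membrane genes and 23 to 113 (median 52) in the 25 others. Col24a1 (216) and Col27a1 (217) had the shortest fibrillar runs. Their repeat was split into 3 runs of at least 6 triplets, where the class median was 2. Of the inner coding exons, 305 of 627 (48.6%) were exactly 54 bases long in the fibrillar class, 16 of 361 (4.43%) in the basement membrane class and 148 of 929 (15.9%) in the others.

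**Figure D1:**
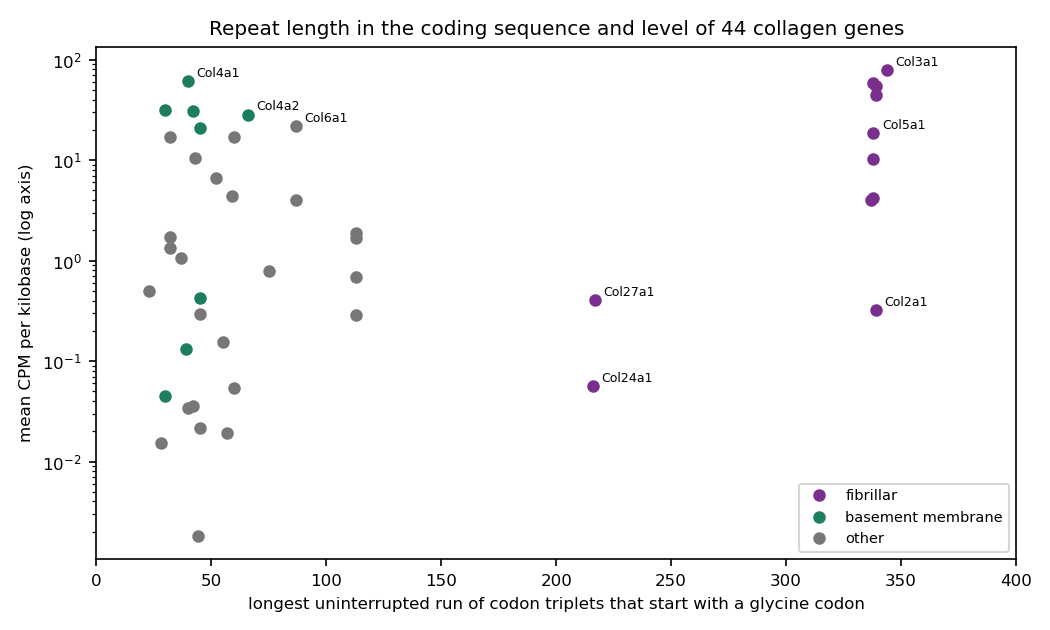
Longest uninterrupted run of codon triplets that start with a glycine codon (x axis, number of triplets) against the mean level over 8 libraries (y axis, log scale, TMM-scaled CPM per kilobase of the authors' gene length), 1 point for each of the 44 collagen genes, coloured by class. The fibrillar genes lie at 216 triplets or more and all others at 113 or fewer, and within each class the levels span several orders of magnitude.

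Levels are given as counts per 1000000 counts of the library (CPM), scaled between libraries with TMM factors (trimmed mean of M-values), as mean ± SD over 4 libraries. Levels of single genes are compared with each other only after division by the gene length of the deposited tables in kilobases. Sums over several genes are not divided by length, so long genes weigh more in them. The libraries held 32630602 to 45878639 counts on genes. Collagen transcripts made up 0.446% of the TMM-scaled library size in the antagonist group and 0.467% in the dual group. The fibrillar class accounted for 2522 ± 111 CPM in the antagonist group and 2689 ± 268 CPM in the dual group (n = 4 each), the basement membrane class for 1240 ± 42.4 and 1243 ± 28.3 CPM, and the other types for 702 ± 16.9 and 735 ± 43.3 CPM.

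The order of single genes was led by chains of the fibrils and of type IV. Over the 8 libraries the level was 78.2 ± 8.04 CPM per kilobase (SD, n = 8) for Col3a1, the single chain of type III collagen found with type I in pliable tissue. It was 61.2 ± 2.17 for Col4a1, 58.7 ± 7.61 for Col1a1, 53.97 ± 4.64 for Col1a2, the chains of type IV and of type I, and 44.8 ± 2.53 for Col5a2, a chain of type V that nucleates type I fibrils. Col18a1, the source of endostatin, followed with 31.2 ± 1.46, then Col4a5 with 30.6 ± 0.79, Col4a2 with 28.3 ± 1.44, Col6a1 with 21.7 ± 1.15 and Col4a6 with 20.8 ± 1.05 CPM per kilobase. In total 15 of the 44 genes exceeded 10 CPM per kilobase and 19 were below 1. The ranges over the 8 libraries overlapped in 35 of the 43 neighbouring pairs of this order. Such overlap does not compare 2 genes within the same library. Library by library, the ratio per kilobase of Col3a1 to Col1a1 was 1.24 to 1.45. That of Col1a1 to Col1a2 was 1.01 to 1.21. Among the leading genes, Col3a1 lay above Col4a1 without overlap but overlapped Col1a1 in 1 library, Col4a1, Col1a1, Col1a2 and Col5a2 overlapped pair by pair, and Col5a2 lay above Col18a1 without overlap.

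The order within type I depends on which length is used. The gene length of the tables joins all annotated exons and is 12426 bases for Col1a2, whereas its longest coding transcript in GENCODE M21 has 5348 bases. With transcript lengths the level of Col1a2 was 125 CPM per kilobase and that of Col1a1 65.0, and the Col1a1 to Col1a2 ratio was 0.517 in place of 1.09. The first 6 genes were the same 6 on both scales. This alternative was added after the lengths had been compared.

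At the low end, 5 of the 44 genes did not pass the filter on low counts: Col6a4 of type VI, Col10a1 of growth plate cartilage, the transmembrane Col13a1, Col19a1 and Col28a1 had at most 14 counts in any library. Among the scarce genes that were tested, Col2a1, the main chain of cartilage fibrils, had 2.74 ± 0.657 CPM in the antagonist group and 3.24 ± 0.293 CPM in the dual group, and Col9a1, which decorates those fibrils, had 1.51 ± 0.31 and 1.37 ± 0.562 CPM.

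**Figure D2:**
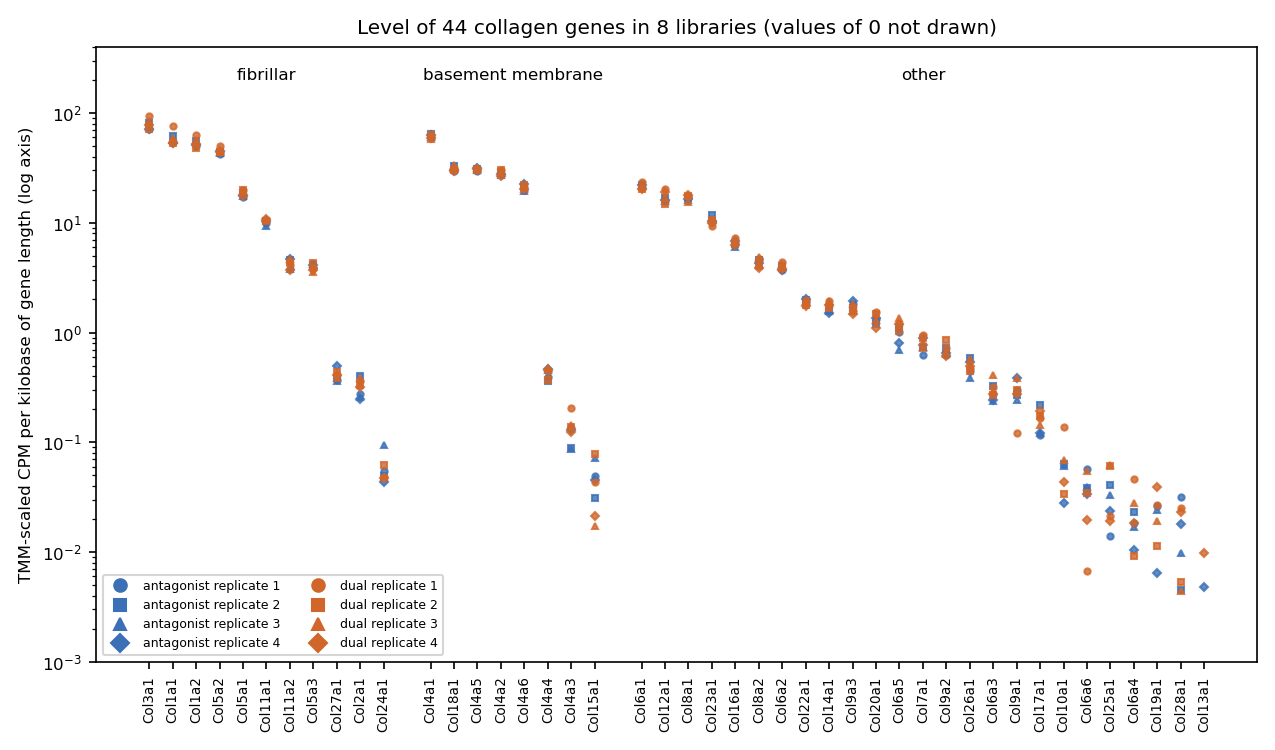
TMM-scaled CPM per kilobase of the authors' gene length (log axis) for the 44 collagen genes, grouped by class, with 1 point per library (blue, 4 antagonist libraries; orange, 4 dual libraries; symbols give the replicate). The 2 groups overlap for each of the 39 genes tested, and Col3a1, Col4a1, Col1a1 and Col1a2 are at the top.

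Levels of chains that assemble into 1 trimer were set side by side. A trimer need not hold its chains in equal number, and this number was not taken into account. Col4a1 exceeded Col4a2, with which it forms the common type IV trimer, in every library: the ratio per kilobase was 2.17, 2.22, 2.23 and 2.27 in antagonist replicates 1 to 4 and 2.03, 2.10, 2.05 and 2.24 in dual replicates 1 to 4. The ranges overlap. Col4a5 and Col4a6, which form another type IV trimer, had a ratio of 1.47 ± 0.0661 over the 8 libraries. Col4a3 and Col4a4, chains of the mature kidney and lung network that assemble with Col4a5, were far lower, at 0.132 ± 0.037 and 0.426 ± 0.0452 CPM per kilobase. Of the type VI chains, Col6a1 had 21.7 CPM per kilobase, Col6a2 had 3.98 ± 0.246 and Col6a3, the long chain of the same trimer, had 0.294 ± 0.0552. The Col6a1 to Col6a2 ratio was 5.45 with the gene length and 2.76 with the transcript length.

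The type IV genes are arranged in head-to-head pairs. The start regions of Col4a1 and Col4a2, which overlap, are shown because paired chains were compared above. Promoter windows of 300 bases (250 before and 50 after the start) were given by RefSeq on GRCm38.p6 for 35 of the 44 genes. Col3a1 and Col1a2, whose windows are given too, are the genes with the highest level on transcript length. Capitals mark the motifs searched on either strand, which are the TATA box as TATAAA, the CAAT box as CCAAT and the GC box as GGGCGG.
Col4a2, chr8:11312555-11312854, plus strand: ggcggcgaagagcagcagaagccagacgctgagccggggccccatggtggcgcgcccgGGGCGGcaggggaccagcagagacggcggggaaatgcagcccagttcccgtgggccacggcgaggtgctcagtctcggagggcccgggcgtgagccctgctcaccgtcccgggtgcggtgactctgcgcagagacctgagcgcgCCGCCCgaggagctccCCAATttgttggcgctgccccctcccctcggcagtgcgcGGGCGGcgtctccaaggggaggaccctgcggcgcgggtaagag
Col4a1, chr8:11312777-11313076, minus strand: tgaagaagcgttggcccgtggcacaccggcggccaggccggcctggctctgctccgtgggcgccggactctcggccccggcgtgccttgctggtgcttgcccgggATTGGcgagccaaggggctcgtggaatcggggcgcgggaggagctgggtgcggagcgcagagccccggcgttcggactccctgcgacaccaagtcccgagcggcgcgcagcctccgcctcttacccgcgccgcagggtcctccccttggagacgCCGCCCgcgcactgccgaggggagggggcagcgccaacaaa
Col1a2, chr6:4505368-4505667, plus strand: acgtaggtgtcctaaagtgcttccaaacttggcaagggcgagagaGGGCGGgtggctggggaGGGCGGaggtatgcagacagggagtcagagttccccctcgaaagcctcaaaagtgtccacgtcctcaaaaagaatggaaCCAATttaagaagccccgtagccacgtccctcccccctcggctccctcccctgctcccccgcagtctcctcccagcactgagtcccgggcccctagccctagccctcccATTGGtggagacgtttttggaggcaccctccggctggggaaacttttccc
Col3a1, chr1:45311288-45311587, plus strand: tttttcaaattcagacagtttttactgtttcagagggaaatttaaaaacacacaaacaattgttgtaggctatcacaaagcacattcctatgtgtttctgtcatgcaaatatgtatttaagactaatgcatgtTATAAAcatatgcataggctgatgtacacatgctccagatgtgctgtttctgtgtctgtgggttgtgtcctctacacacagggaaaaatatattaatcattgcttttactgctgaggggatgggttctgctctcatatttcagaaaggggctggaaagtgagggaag
The starts of Col4a1 and Col4a2 lie 21 bases apart and their windows share 78 bases, in which the capitals after the start of each gene mark the same GGGCGG. The Col4a5 and Col4a6 starts are 1343 bases apart on the X chromosome. Genes for Col3a1 and Col5a2 also neighbour each other on chromosome 1, with 24614 bases between them, and Col6a6, Col6a5 and Col6a4 lie in a row on chromosome 9. TATAAA was found in 5 of the 38 member windows (13.2%) and in 13.6% of all 32851 windows of this length, CCAAT in 13 (34.2%; all windows 37.4%) and GGGCGG in 23 (60.5%; all windows 35.7%). The GGGCGG shared by the windows of Col4a1 and Col4a2 counts for both. Member windows held a median of 11.5 CG dinucleotides and all windows 7, and the part of this in the GGGCGG share was not tested. The window of Col3a1 held a TATAAA and no CG dinucleotide, and that of Col1a2 held 13 CG dinucleotides. A match of letters describes the window and is no evidence of binding.

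Between the groups, no collagen gene was called by edgeR and 1, Col6a5, by DESeq2. In the edgeR fit over all 18756 genes tested, 0 of the 39 tested collagen genes passed an adjusted p (Benjamini-Hochberg) of 0.05, where 39 of all genes (0.208%) did. At an unadjusted p under 0.05 edgeR counted 7 of 39 (17.9%), all with a higher mean in the dual group, beside 12.8% of all genes, of which 5.98% were higher and 6.81% lower. The DESeq2 call was 1 among 24 collagen genes for which an adjusted p was computed, beside 3.37% of all genes, and DESeq2 counted 3 at an unadjusted p under 0.05, all higher (all genes 4.85%). For none of the 39 genes did the 4 dual libraries all lie above or all below the 4 antagonist libraries, which was the case for 3.36% and 4.06% of all genes. The log2 fold change was above 0 for 28 of 39 genes (71.8%; all genes 51.5%) with a median of 0.06 (all genes 0.0038), all 39 lay within 1.5-fold and 26 within 10% of no change.

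Dual replicate 1 stood out among the collagens. It had the highest value of all 8 libraries for 14 of the 39 collagen genes (35.9%), 5 of 11 fibrillar, 2 of 8 basement membrane and 7 of 20 others, where it was the highest for 15.5% of all genes. Without it, edgeR left 1 collagen gene, Col6a5, at an unadjusted p under 0.05, with a higher mean (all genes 13.6%, of which 6.54% were higher), and the median log2 fold change over the 39 genes was 0.03. This library also had the lowest total, 32630602 counts, and the part of depth in these values was not tested.

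**Figure D3:**
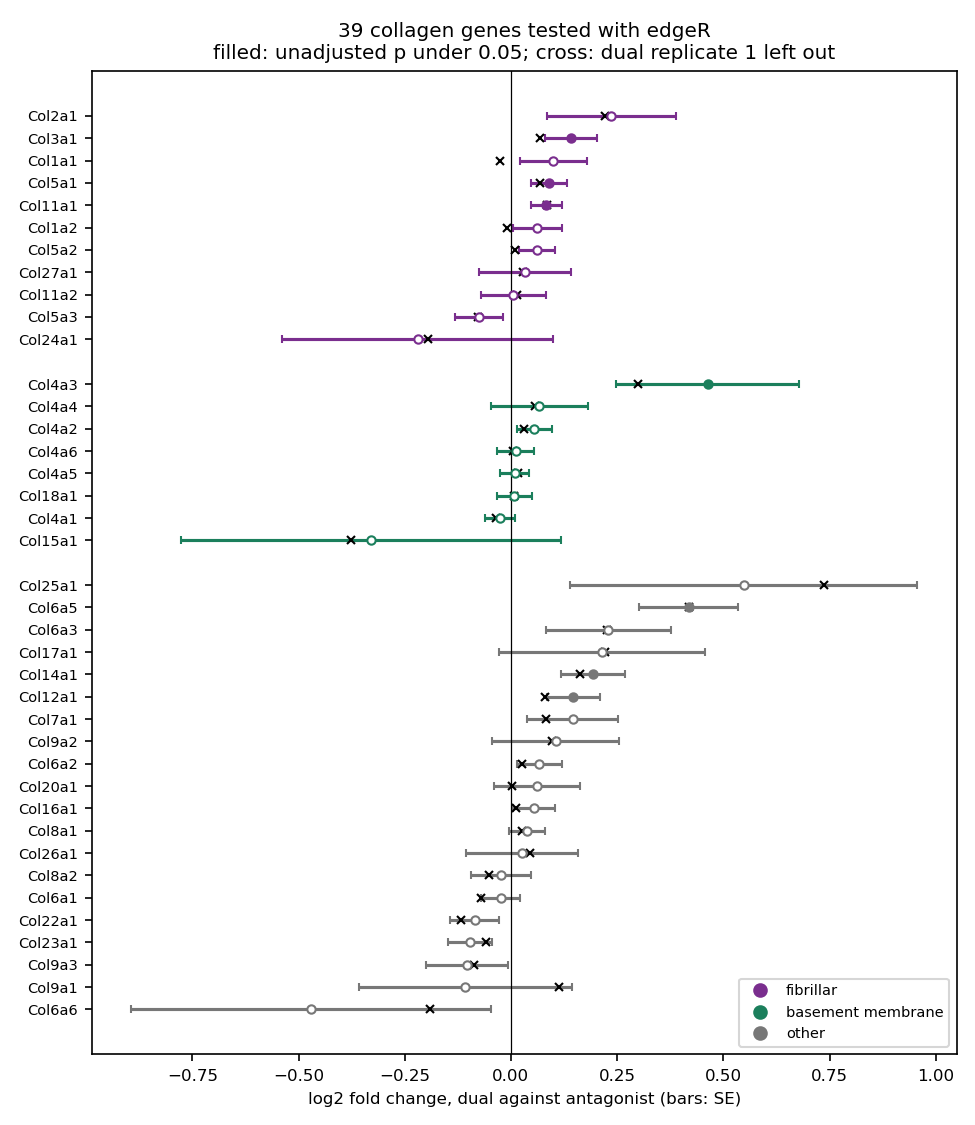
Log2 fold change of the dual against the antagonist group for the 39 collagen genes tested (edgeR, bars give the SE), ordered within each class, with filled circles for an unadjusted p under 0.05 and crosses for the fit without dual replicate 1. The 7 filled circles all lie to the right of 0, none passes an adjusted p of 0.05, and the crosses of Col1a1, Col1a2 and Col9a1 lie on the other side of 0 from their circles.

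The summed level of the fibrillar collagens varied more between dual than between antagonist libraries. It was 2418, 2673, 2531 and 2468 CPM in antagonist replicates 1 to 4 and 3057, 2455, 2710.4 and 2534 CPM in dual replicates 1 to 4. Dual replicate 1 is the highest, dual replicate 3 lies just above the antagonist range and the other two lie inside it. The ratio of the group means was 1.07, and 1.02 without dual replicate 1, which left the dual mean at 2566 ± 131 CPM (n = 3). The median log2 fold change of the 11 genes was 0.06, and 0.01 without that library.

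Col3a1 had 695, 793, 735 and 697 CPM in the antagonist libraries and 922, 706, 831 and 762 CPM in the dual libraries. The groups overlap, with dual replicate 1 highest and dual replicate 2 among the antagonist values. The log2 fold change was 0.14 ± 0.06 (SE; edgeR, adjusted p = 0.334), and 0.07 without dual replicate 1. Its reads include 141 exonic bases shared on the same strand with a neighbouring predicted gene, whose counts cannot be separated with certainty.

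The 2 chains of type I, the main collagen of scar and skin, followed the same libraries. Col1a1 had 360.3, 403, 372 and 352 CPM in the antagonist group and 499, 352, 393 and 351 CPM in the dual group, so that only dual replicate 1 lay above the antagonist range. Col1a2 had 623, 689.7, 681 and 631 CPM and, in the dual group, 783, 599.8, 702 and 655 CPM, with dual replicates 1 and 3 above the antagonist range and dual replicate 2 below it. Their log2 fold changes were 0.10 ± 0.08 and 0.06 ± 0.06 (adjusted p in edgeR 0.646 and 0.711), and without dual replicate 1 the signs turned, to -0.03 and -0.01.

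Type V sets the diameter of type I fibrils and has 3 chains. Col5a1 had 146, 159, 148 and 153 CPM in the antagonist libraries and 169, 168, 162 and 147 CPM in the dual libraries, where 3 of 4 exceeded the antagonist range (log2 fold change 0.09 ± 0.04; edgeR, adjusted p = 0.387). Col5a2 had 407, 427, 412 and 433 CPM against 486, 427, 419.8 and 421 CPM, with dual replicate 1 alone outside (0.06 ± 0.04, adjusted p in edgeR 0.579). Col5a3, the third and least abundant chain, had 26.3, 28.1, 28.5 and 28.1 CPM against 26.4, 29.4, 24.4 and 25.3 CPM (-0.07 ± 0.06). An annotated gene on the opposite strand covers 212 exonic bases of Col5a1, and since it is not stated whether counting used the strand, its reads cannot be told apart from those of Col5a1.

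Type XI is a minor fibril collagen related to type V. Col11a1 had 127, 133, 119.8 and 132 CPM in the antagonist group and 135, 133, 137 and 138 CPM in the dual group. The dual values lie at or above the upper end of the antagonist values, and dual replicate 1 is not the highest (log2 fold change 0.08 ± 0.04; edgeR, adjusted p = 0.352; 0.09 without dual replicate 1). Col11a2 had 25.8, 31.5, 25.98 and 31.7 CPM against 28.4, 29.8, 32.2 and 25.1 CPM, a log2 fold change of 0.01 ± 0.08. Col24a1, a rare fibrillar chain of bone, had the lowest fibrillar value (-0.22 ± 0.32) at 12 to 30 counts per library.

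**Figure D4:**
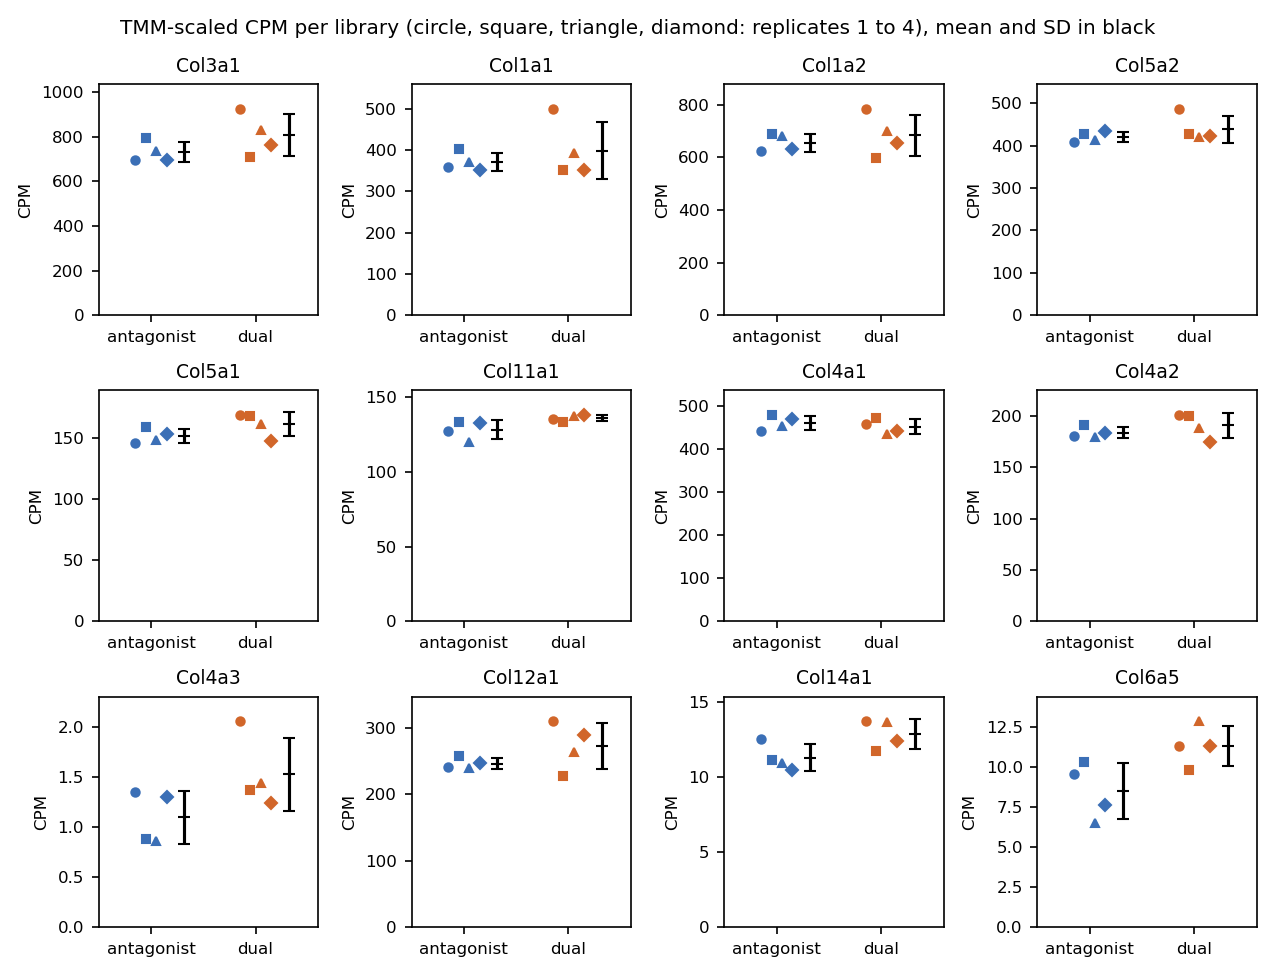
TMM-scaled CPM in each library for 12 collagen genes (y axes start at 0; blue, antagonist; orange, dual; circle, square, triangle and diamond for replicates 1 to 4; black, mean and SD of 4 libraries). Dual replicate 1 is the highest library for Col3a1, Col1a1, Col1a2, Col5a2, Col5a1, Col4a2, Col4a3, Col12a1 and Col14a1, and the groups overlap in each panel.

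The basement membrane collagens overlapped between the groups. Their summed level was 1194, 1283, 1214 and 1268 CPM in the antagonist libraries and 1258, 1269, 1242 and 1204 CPM in the dual libraries, and the dual range lies inside the antagonist range. The median log2 fold change of the 8 genes was 0.0099. Col4a1 had 442, 479, 453 and 470.3 CPM against 459.5, 473, 436 and 442 CPM (-0.03 ± 0.04). For Col4a2 the values were 180.3, 192, 179.9 and 183 CPM against 200.8, 200.2, 188 and 175 CPM, where dual replicates 1 and 2 lie above the antagonist range (0.06 ± 0.04, adjusted p in edgeR 0.623).

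The X-linked pair stayed close as well. Col4a5 ranged from 198 to 213 CPM in the antagonist libraries and from 202 to 212 CPM in the dual libraries (0.01 ± 0.03), and Col4a6 from 154 to 179.7 CPM and from 162 to 175 CPM (0.01 ± 0.04). Col18a1, of the vessel basement membrane, ranged from 209 to 231 CPM and from 210.3 to 237 CPM (0.01 ± 0.04). For these 3 genes the groups overlap throughout.

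Among the scarce type IV chains, Col4a3 had 1.35, 0.879, 0.861 and 1.30 CPM in the antagonist libraries and 2.05, 1.37, 1.44 and 1.24 CPM in the dual libraries. These are 36 to 67 counts per library, and the lowest dual library lies below 2 antagonist libraries (0.46 ± 0.22; edgeR, adjusted p = 0.377; 0.30 ± 0.22 without dual replicate 1). A gene on the opposite strand covers 563 of its exonic bases. Col4a4, which lies head to head with Col4a3 with 71 bases between the genes, had 4.42 ± 0.523 CPM and 4.63 ± 0.486 CPM (0.07 ± 0.11). Col15a1, a relative of Col18a1, had 5 to 19 counts per library and the lowest value of the class (-0.33 ± 0.45).

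Of the other types, the fibril-associated Col12a1 and Col14a1 had an unadjusted p under 0.05. Col12a1, which coats type I fibrils under load, had 241, 257, 240.1 and 247 CPM in the antagonist libraries and 309.7, 228, 264 and 289 CPM in the dual libraries. Dual replicate 2 is the lowest and the remaining dual libraries are the highest of the 8 (0.15 ± 0.06; edgeR, adjusted p = 0.328; 0.08 without dual replicate 1). Col14a1, which binds decorin on the fibril surface, had 12.5, 11.1, 10.9 and 10.5 CPM against 13.7, 11.7, 13.6 and 12.4 CPM (0.19 ± 0.08; edgeR, adjusted p = 0.278; 0.16 without dual replicate 1).

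Col6a5, an alternative long chain of type VI, had the smallest p of the collagen genes. It had 9.54, 10.3, 6.48 and 7.59 CPM in the antagonist libraries and 11.3, 9.78, 12.8 and 11.3 CPM in the dual libraries. Dual replicate 2 lies below antagonist replicate 2 and the remaining dual libraries lie above all antagonist ones. The log2 fold change was 0.42 ± 0.12. Its adjusted p was 0.13 in edgeR, 0.0379 in DESeq2 and 0.0059 in edgeR without the low-count filter (a setting that called 1.17% of all genes), and the direction did not depend on dual replicate 1 (0.42 without it). The size is below the 1.5-fold criterion of the study.

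Further chains of type VI lay on both sides of 0. Col6a6, another long chain, was listed by the study as lowered more by both ligands than by either alone, each against activated cells without ligands. That list used these samples together with control and A3 agonist cultures that were not used here. The reference thus differs, and the direction of Col6a6 here is not independent evidence. Col6a6 was near the limit of counting, with 20, 16, 15 and 14 counts under the antagonist and 2, 12, 23 and 8 under both ligands. Scaled to CPM, antagonist replicate 1 (0.519) and dual replicate 3 (0.501) are the highest and dual replicate 1 (0.0613) is the lowest (-0.47 ± 0.42, adjusted p in edgeR 0.697; -0.19 without dual replicate 1). Col6a1 had 91.0, 96.5, 97.8 and 97.8 CPM against 103, 89.5, 95.8 and 88.4 CPM (-0.02 ± 0.05), Col6a2 32.4 ± 1.58 against 33.9 ± 2.36 CPM (0.07 ± 0.05) and Col6a3 3.25 ± 0.491 against 3.80 ± 0.758 CPM (0.23 ± 0.15). The differences between these chains in their response were not tested.

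The short-chain network collagens Col8a1 and Col8a2, which form the lattice under the corneal endothelium and appear in remodelling vessels, had log2 fold changes of 0.04 ± 0.04 and -0.02 ± 0.07 at 131 ± 3.37 against 135 ± 8.67 CPM and 19.9 ± 0.963 against 19.6 ± 2.18 CPM. The transmembrane Col23a1 had 58.8, 67.7, 61.7 and 59.0 CPM against 53.2, 61.1, 60.2 and 56.7 CPM, so that dual replicates 1 and 4 lie below the antagonist range (-0.10 ± 0.05; edgeR, adjusted p = 0.462). Col25a1, the neuronal collagen found in amyloid plaques, had the largest log2 fold change of the 39, 0.55 ± 0.41, at 7 to 37 counts per library, and its adjusted p in edgeR was 0.621.

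Genes that make, cross-link, bind and degrade collagen were read from the same fit. Of a list of 54 such genes 52 were tested, 0 were called by edgeR or DESeq2, and 4 (7.69%; all genes 12.8%) had an unadjusted p under 0.05 in edgeR, all with a higher mean in the dual group. Above 0 lay 34 log2 fold changes and below 0 lay 18, with a median of 0.02. By role, 0 of 8 folding and export genes, 0 of 7 propeptide cleavage genes and 0 of 5 cross-linking genes were among the 4, beside 1 of 15 prolyl and lysyl modification genes, 2 of 9 receptors and 1 of 8 breakdown genes.

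The most abundant genes of the roles had adjusted p-values in edgeR of 0.416 (Lox) or more. Serpinh1, the collagen chaperone, had 362 ± 12.9 CPM in the antagonist group and 354 ± 16.5 CPM in the dual group (-0.03 ± 0.04), and P4hb, a subunit of prolyl hydroxylase, 508.8 ± 7.29 and 498 ± 9.82 CPM (-0.03 ± 0.03). Log2 fold changes were -0.03 ± 0.04 for Bmp1, which trims procollagen ends, 0.13 ± 0.06 for the cross-linking oxidase Lox, 0.02 ± 0.03 for the collagen receptor Ddr1 and 0.01 ± 0.04 for Timp1, an inhibitor of collagenases.

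The 4 with an unadjusted p under 0.05 were led by a gelatinase. Mmp9, which degrades denatured collagen and type IV collagen, had 191, 164, 202 and 193 CPM in the antagonist libraries and 287, 220.0, 234 and 206 CPM in the dual libraries. The groups do not overlap, although the lowest dual and highest antagonist values are close (0.34 ± 0.08; edgeR, adjusted p = 0.0651). The receptors Itga1, a subunit of the collagen integrin (0.13 ± 0.04), and Ddr2, which binds fibrillar collagen (0.10 ± 0.04), and the lysyl hydroxylase Plod2 (0.10 ± 0.04) had adjusted p-values of 0.188, 0.298 and 0.358 in edgeR.

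The cultures hold RNA of cells other than microglia, and levels of cell type markers are given here beside those of the collagens. The methods report a high microglial purity by labelling with antibodies to CD11b. Marker sums of RNA do not measure shares of cells, and a listed gene may be expressed by more than 1 of these cell types. Marker sums were 983 to 1096 CPM for 9 microglial genes and 5777 to 6282 CPM for 7 astrocyte genes, with the astrocyte filament gene Gfap at 1639 ± 60.8 and 1674 ± 81.3 CPM. Among the microglial genes, P2ry12 and Tmem119, which mark resting microglia, were low, with 48 to 111 and 244 to 379 counts per library. For 7 fibroblast genes other than collagens the sums were 960.4, 1017, 985 and 888 CPM in the antagonist libraries and 1056, 918, 1099 and 1046 CPM in the dual libraries, with Dcn, the decorin gene, at 538 ± 31.3 and 582 ± 46.3 CPM. At an unadjusted p under 0.05 in edgeR, 2 of the 7 fibroblast genes (Dcn and Lum) were higher and 0 lower in the dual group, beside 5.98% and 6.81% of all genes. In the same way 1 microglial gene was higher and 2 lower of 9, and 2 astrocyte genes were higher and 1 lower of 7. Of 5 mural genes tested 1 was higher (Cspg4), and of 5 oligodendrocyte lineage genes 1 was lower. Of the endothelial and neuronal genes 0 were counted. In the main edgeR fit only the microglial list held a called gene, C1qa (all genes 0.208%). DESeq2 (all genes 3.37%) and edgeR without the low-count filter (all genes 1.17%) called C1qa too. Both also called microglial Aif1 (adjusted p 0.0224 in DESeq2, 0.0082 in edgeR without the filter), lower in the dual group. The oligodendrocyte lineage gene Olig1 (0.0492 and 0.0293 in the same fits) was called and lower as well. For 7 mural cell genes the sums were 278, 285, 266 and 273 CPM against 315, 297, 288 and 262 CPM. The pericyte genes among them were scarce, with Abcc9 and Kcnj8 at 0 to 16 and Rgs5 at 14 to 39 counts per library. Endothelial genes summed to 44.3 to 59.0 CPM, neuronal genes to 9.12 to 11.3 CPM and oligodendrocyte lineage genes to 351 to 410.2 CPM.

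Dual replicate 1, with the highest fibrillar sum, also had the highest mural sum and the lowest microglial sum of the 8 libraries. Its fibroblast sum was next to the highest, after dual replicate 3. Dual replicate 2 had the next highest mural sum (297 CPM), while its fibrillar sum (2455 CPM) lay inside the antagonist range. The microglial genes lay on both sides of 0. C1qa had 476 ± 29.6 CPM in the antagonist group and 403 ± 11.6 CPM in the dual group and was called by edgeR (adjusted p = 0.024, up to 0.0932 over the alternatives, so that the call was lost under some), whereas Csf1r had 218 ± 5.47 and 235 ± 8.18 CPM (adjusted p in edgeR 0.171), and the median log2 fold change of the 9 genes was -0.0012. The part of these markers in the collagen values was not tested, and fewer cells of a type cannot be told apart from less RNA per cell in these bulk libraries.

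**Figure D5:**
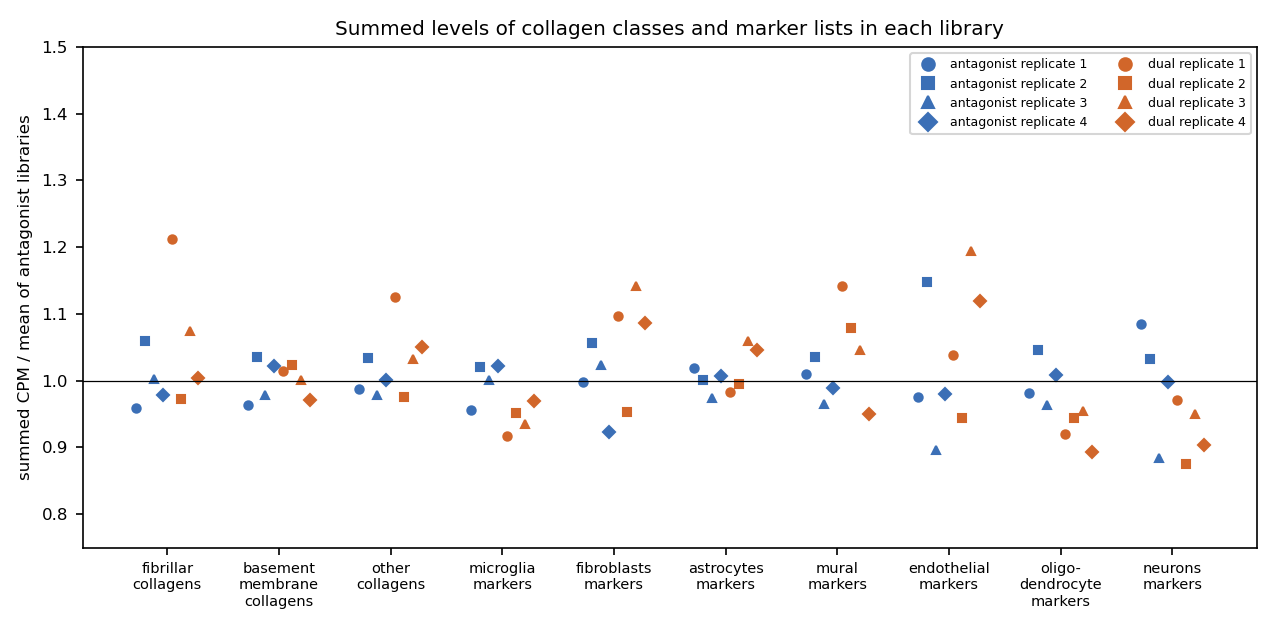
Summed CPM of the 3 collagen classes and of 7 lists of cell type markers in each library, divided by the mean of the 4 antagonist libraries (blue, antagonist; orange, dual; symbols give the replicate). Dual replicate 1 stands highest for the fibrillar collagens, the other collagens and the mural markers and lowest for the microglial markers, and the basement membrane collagens stay near 1 in all libraries.

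Among collagen genes with at least 16 CPM (21 genes) the median coefficient of variation was 4.37% between antagonist libraries and 6.75% between dual libraries, where all genes at that level had 3.56% and 4.37%. The summed level of the fibril-associated collagens was 336 ± 8.95 CPM in the antagonist group and 365 ± 37.2 CPM in the dual group, and Col12a1 held most of it.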

How the data were processed

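Poly(A) RNA of 8 libraries (4 per group) was analysed. According to the methods, the authors aligned paired-end reads with HISAT2 to an Ensembl mouse genome, and per the labels featureCounts 1.5.0-p3 and build mm10 were used; whether reads were counted by strand is not given in the sources used here. The values used are the deposited raw counts per gene; the 9 columns of 3 control libraries without a sample in this series, and the columns of the authors' fold changes and p-values, were not used. All 44 collagen genes had the same coordinates in GENCODE M21 (GRCm38).

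The fit used edgeR 4.0.16 under R 4.3.3 (filterByExpr minimum count 10, TMM, two-sided quasi-likelihood test without covariates, Benjamini-Hochberg adjustment over all genes, called under 0.05) and, as an alternative, DESeq2 1.42.0; both were tested on simulated data. Depth was 32630602 to 45878639 counts, which gives 3 counts a value of 0.0654 to 0.0919 CPM; the common biological coefficient of variation was 5.28%. Other alternatives were RLE factors, no filter, the replicate block, leaving out each library, raw library totals, a fold criterion of 1.5 and type IV alone as basement membrane.

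Members and lists were chosen with earlier results of these data known. Named collagens are the 4 highest per kilobase in each class, the 3 largest rises and falls, those with a p under 0.05, partner chains and Col6a6; named pathway genes are the most abundant per role and those with a p under 0.05. Glycine runs were counted as codon triplets opening with GGN, at least 6 in a row.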

Additional observations from a re-analysis of the deposited data

Results flagged for a closer look

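Among 98 groups of 4 libraries examined for named genes, class sums and marker sums, 2 held a library set apart from the others by Dixon's criterion for 4 samples, and chance sets apart about 1 in 20. Col5a2 had 485.5 CPM in dual replicate 1, where the other dual libraries had 419.8 to 427 CPM. Col24a1 had 0.473 CPM in dual replicate 2, where the others had 0.361 to 0.37 CPM, a matter of few counts.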

How the results depend on the processing

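Over all genes 381 were called by DESeq2, 366 without the low-count filter and 17 with the replicate number as a block, beside 39 in the main fit, and 0 to 172 when 1 library was left out. DESeq2 and the fit without a filter each called 1 collagen gene, Col6a5, and leaving out a library called 0. Collagen genes with an unadjusted p under 0.05 and a higher mean in the dual group numbered 3 with DESeq2 and 1 to 8 with a library left out, and with a lower mean 1 without the filter, 1 with the block and 0 to 2 with a library left out. The filter decided 1 called pathway gene, Mmp9, which was also the 1 called without dual replicate 4 (0 to 1 with a library left out). With type IV alone as basement membrane the sums were 1021 (antagonist) and 1023 CPM (dual), and the other types summed to 921 and 955 CPM, by construction. With a library left out, the median log2 fold change ranged from 0.01 to 0.09 (fibrillar), -0.01 to 0.04 (basement membrane) and 0.04 to 0.09 (other types), and the sums from 2472 to 2557 and 2566 to 2767 CPM (fibrillar), 1226 to 1255 and 1235 to 1256 CPM (basement membrane) and 694 to 707 and 716 to 751 CPM (others), antagonist and dual. Deviations of same-numbered libraries from their group means had correlations of -0.0529 to 0.0408, and those of differently numbered libraries -0.101 to 0.0621. Such small correlations over all genes cannot show whether same-numbered libraries share a litter or preparation. The cause of the differences between settings was not tested.

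For 38 named genes and 456 alternatives, 428 kept direction and side of the threshold, and 24 signs turned, all with 1 library left out. 
Their log2 fold changes ranged from -0.056 to 0.069 for Col11a2, -0.034 to 0.036 for Col18a1, -0.026 to 0.16 for Col1a1, -0.0085 to 0.12 for Col1a2, -0.35 to 0.077 for Col24a1, -0.0095 to 0.028 for Col4a5, -0.022 to 0.053 for Col4a6, -0.071 to 0.0052 for Col6a1, -0.090 to 0.029 for Col8a2, -0.065 to 0.0080 for Bmp1, -0.0090 to 0.038 for Ddr1 and -0.018 to 0.038 for Timp1. Col6a5 (DESeq2, no filter) and Mmp9 (no filter, without dual replicate 4) passed the threshold under alternatives.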
